A study of Mus musculus with 36 samples.

Results

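The atria of CUG960 mice that received both MBNL vectors were compared with the atria of untreated CUG960 +dox mice. The libraries were chosen by their labels alone, and they are 6 of the 36 libraries of the series, 3 for each cohort, each from a separate mouse. All 6 mice carried the TREDT960I transgene (Hom), in which a tetracycline response element drives an interrupted CUG repeat tract in the context of human DMPK, and the MHCrtTA transgene (Hem), in which the cardiomyocyte-specific α-myosin heavy chain promoter drives the activator. All 6 were fed doxycycline (dox) from postnatal day 1, and tissue was taken at 21 weeks of age. The treated cohort, MBNL1+MBNL2, received AAV9-3XFLAG-MBNL1 and AAV9-3XMYC-MBNL2 through the tail vein at 9 weeks, with both human cDNAs under the cardiac human TNNT2 promoter. The +dox cohort received no virus, so that effects of the AAV9 vectors as such and of the MBNL proteins cannot be told apart. Other atrial cohorts of the same genotype serve here for comparison only. They are -dox mice, which never received dox, +/-dox mice, which were taken off dox at 9 weeks, and +dox mice given the MBNL1 or the MBNL2 vector alone, each with 3 libraries.

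Muscleblind-like (MBNL) proteins bind RNA and set the adult pattern of alternative splicing, polyadenylation and RNA localization in muscle. In myotonic dystrophy type 1, RNA with expanded CUG repeats collects in nuclear foci and holds MBNL proteins there, and many transcripts return to fetal isoforms. In the atria the disease is known for conduction delay and atrial arrhythmia.

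The 6 libraries held between 62541798 and 85783989 expected counts (reads assigned to genes by RSEM, which need not be whole numbers). Levels are given as normalized CPM, that is, counts scaled to a common library size after TMM normalization. Pearson's r across genes between replicates was between 0.9952 and 0.9974. Atrial markers were high, as the atrial and nodal list, which holds Nppa, Myl4, Myl7 and Sln, summed to 19958, 18358 and 17295 normalized CPM in the +dox libraries and 19269.7, 22149.5 and 25953 in the MBNL1+MBNL2 libraries, against 993, 1089 and 1019 and 977, 1036 and 949 for the ventricular list. Markers of lung were near 0, with at most 0.0700 TPM (a level that RSEM also scales by transcript length) for Sftpc. Libraries came in sets named by their prefix. The MBNL1+MBNL2 libraries all belong to the set named TC-56 (set B), whereas +dox replicates 1 and 2 belong to TC-53 (set A) and only +dox replicate 3 to set B. The study lists the MBNL1+MBNL2 animals as male and the +dox animals as 2 males and 1 female, and Xist, which coats the inactive X of females, was at 0.226, 0.354 and 263 normalized CPM in the +dox libraries and 0.916, 0.840 and 0.811 in the MBNL1+MBNL2 libraries. No +dox library therefore shares both set and sex with the treated libraries. Fold changes of the main genes are therefore also given against +dox replicates 1 and 2 (same sex, other set) and against +dox replicate 3 (same set, other sex). In bulk tissue, fewer cells of a type and less RNA per cell cannot be told apart.

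The mouse genes that correspond to the delivered proteins were examined first. Mbnl1 stood at 188, 165 and 179 normalized CPM in the +dox libraries and 209, 172 and 173 in the MBNL1+MBNL2 libraries (log2 fold change 0.059, SE 0.087, adjusted p = 0.900), and Mbnl2 at 325, 294 and 302 normalized CPM in the +dox libraries and 339.9, 305 and 298 in the MBNL1+MBNL2 libraries (log2 fold change 0.035, SE 0.091, adjusted p = 0.950). Both groups overlapped for each gene. On the scale of TPM, which RSEM divides by the length of the isoforms it assigns, Mbnl2 was at 134, 135 and 137 in the +dox and 167, 152 and 154 in the MBNL1+MBNL2 libraries, without overlap, and Mbnl1 at 60.1, 55.0 and 64.6 and 75.1, 62.5 and 63.8, with overlap. The higher TPM of Mbnl2 thus came without more counts, and its cause was not tested. The vectors carry human sequences, which are not among the gene symbols, so delivery of the vectors was not checked here. Western blots in the study showed more total MBNL1 and MBNL2 protein in MBNL1+MBNL2 than in +dox atria. Whether reads of the human cDNAs were assigned to mouse Mbnl1 and Mbnl2 was not tested, so their counts and TPM may hold both. Mouse Dmpk, the counterpart of the human gene in the repeat transgene, was at 573, 560.5 and 503 normalized CPM in the +dox libraries and 512, 573 and 592 in the MBNL1+MBNL2 libraries, again with overlap (log2 fold change 0.035, SE 0.088). These values give no level of the repeat RNA, which was not measured here. Whether reads of the transgene were assigned to mouse Dmpk was not tested. Mbnl3, the third family member, reached at most 0.279 normalized CPM in any of the 6 libraries.

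Of 19231 genes tested, 50 were called between MBNL1+MBNL2 and +dox atria, 34 higher and 16 lower (0.260% of all genes tested, 0.177% higher and 0.0832% lower). A gene was called where its adjusted p was below 0.05 and its change 1.5-fold or more by edgeR's quasi-likelihood test, adjusted after Benjamini and Hochberg. Before adjustment, 1924 genes had p below 0.05. Fold changes of the called genes had a median size of 0.87 on the log2 scale, and 22 of the 50 changed by at least 2-fold, whereas 90% of all genes lay between -0.67 and 0.78. The groups did not overlap for any of the 50, against 17.6% of all genes tested that also did not overlap. Coding genes made up 48 of the 50, and none lay on the X or Y chromosome. An annotated gene on the opposite strand overlapped 31 of the 50, and whether strand was used in counting is not given in the sources used here. The shares of coding and of overlapped genes over all genes tested were not counted, so neither count is read as a trait of the calls. Set and sex are shown in the plot of called genes. All 50 kept their direction against the male +dox libraries of set A and against the female +dox library of set B, and 39 of the 50 changed by at least 1.5-fold against each. As no called gene overlapped between the groups, the kept direction was fixed in advance and is no check on set or sex. When the test was repeated, 34 of the 50 were called against set A, 27 against set B and 20 against both. The number of calls was lower in each fit with 1 library left out. Such a fit also has fewer libraries in a cohort, and the part of a given library was not told apart from that. The number was 20 once MBNL1+MBNL2 replicate 3 was dropped, 24 if +dox replicate 1 was, and 28 if either +dox replicate 2 or 3 was. Called in every one of these 6 leave-one-out fits were 14 of the 50, all of them rises.

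**Figure D1:**
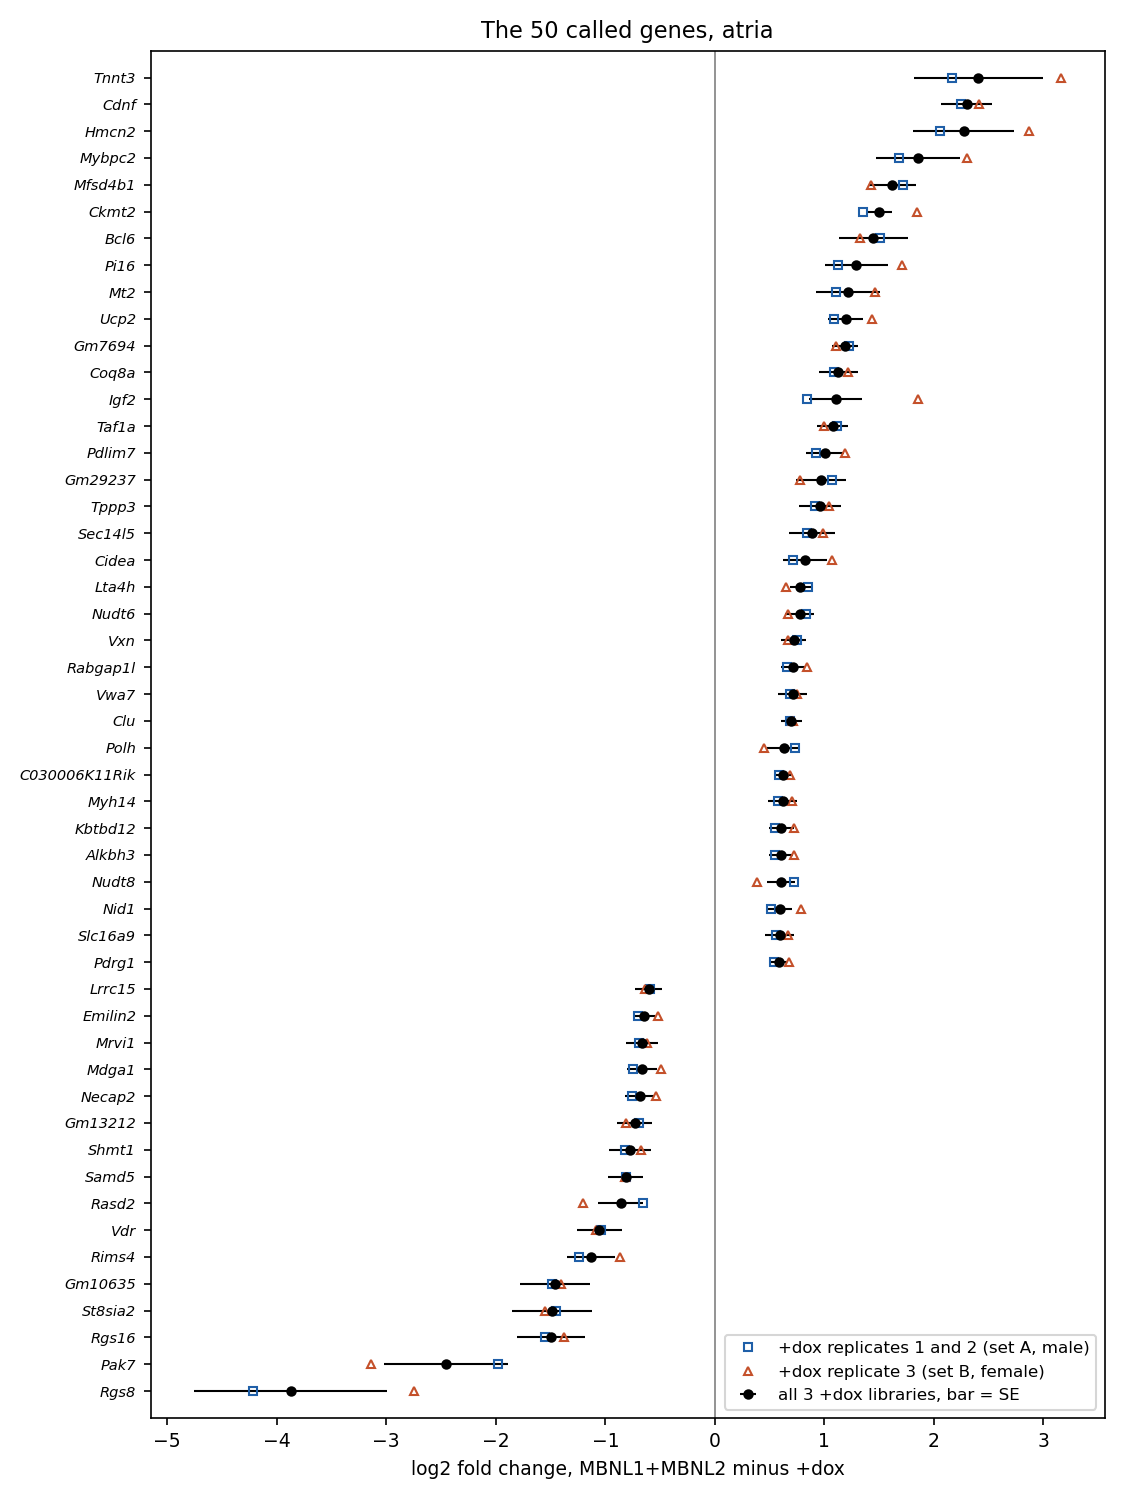
Log2 fold change (horizontal axis) of each called gene (vertical axis) in MBNL1+MBNL2 against +dox atria. Black points with SE bars use all 3 +dox libraries, squares only +dox replicates 1 and 2 and triangles only +dox replicate 3. All 3 symbols lie on the same side of 0 for each of the 50 genes, and the black points run from -3.87 for Rgs8 to 2.41 for Tnnt3. The shared side follows from the absence of overlap between the groups.

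Genes of mitochondrial energy handling, put together after their values were seen, were among the rises. Ckmt2, which encodes the sarcomeric mitochondrial creatine kinase (chr13:91853387-91876885, GRCm38), was at 242, 205 and 159 normalized CPM in the +dox libraries and 524, 557 and 635 in the MBNL1+MBNL2 libraries. The lowest treated library was more than 2-fold above the highest untreated one, and the change was called (log2 fold change 1.50, SE 0.12, adjusted p = 8.33e-10, edgeR's quasi-likelihood test, adjusted after Benjamini and Hochberg). The other cohorts had 695 ± 78.0 in -dox, 631 ± 45.6 in +/-dox, 464 ± 50.9 in MBNL1 and 421 ± 55.2 in MBNL2 mice (mean ± SD, n = 3 each), and the direct comparison of MBNL1+MBNL2 with -dox mice gave a log2 fold change of -0.28 (SE 0.11, adjusted p = 0.116). Its log2 fold change was 1.36 against +dox replicates 1 and 2 and 1.85 against replicate 3. By DESeq2, which the study used, Ckmt2 had 1.506 in MBNL1+MBNL2 against +dox atria. The study lists that value for atria under MBNL1 and a smaller one under both vectors. Cohorts here follow the deposited labels, and the cause of this mismatch was not tested. Coq8a, a kinase-like protein needed for coenzyme Q synthesis, was at 73.3, 66.5 and 63.7 normalized CPM in the +dox libraries and 149, 129 and 167 in the MBNL1+MBNL2 libraries (log2 fold change 1.13, SE 0.18, adjusted p = 0.00111). Its treated libraries lay above all +dox libraries, yet far below the -dox mean of 345 ± 29.1, and the fold change against -dox mice was -1.22 (SE 0.18, adjusted p = 5.33e-05). Ucp2, a mitochondrial carrier of the uncoupling protein family, was at 213, 240.5 and 179 normalized CPM in the +dox libraries and 428, 515 and 506 in the MBNL1+MBNL2 libraries (log2 fold change 1.20, SE 0.16, adjusted p = 7.78e-05). Here the treated libraries lay within or above the range of the cohorts off dox, whose means were 445 ± 21.3 (-dox) and 387 ± 31.8 (+/-dox), and the fold change against -dox mice was 0.12 (SE 0.16, adjusted p = 0.725). These 3 genes were called in all 6 leave-one-out fits. Over all genes tested, 0.260% were called. Of the 39 genes in the list of energy metabolism, 2 were called, both higher (Ckmt2 and Ucp2), and the list median was 0.11 beside -0.0046 for all genes. Against +dox replicate 3 that median was 0.33 and against replicates 1 and 2 it was 0.022.

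**Figure D2:**
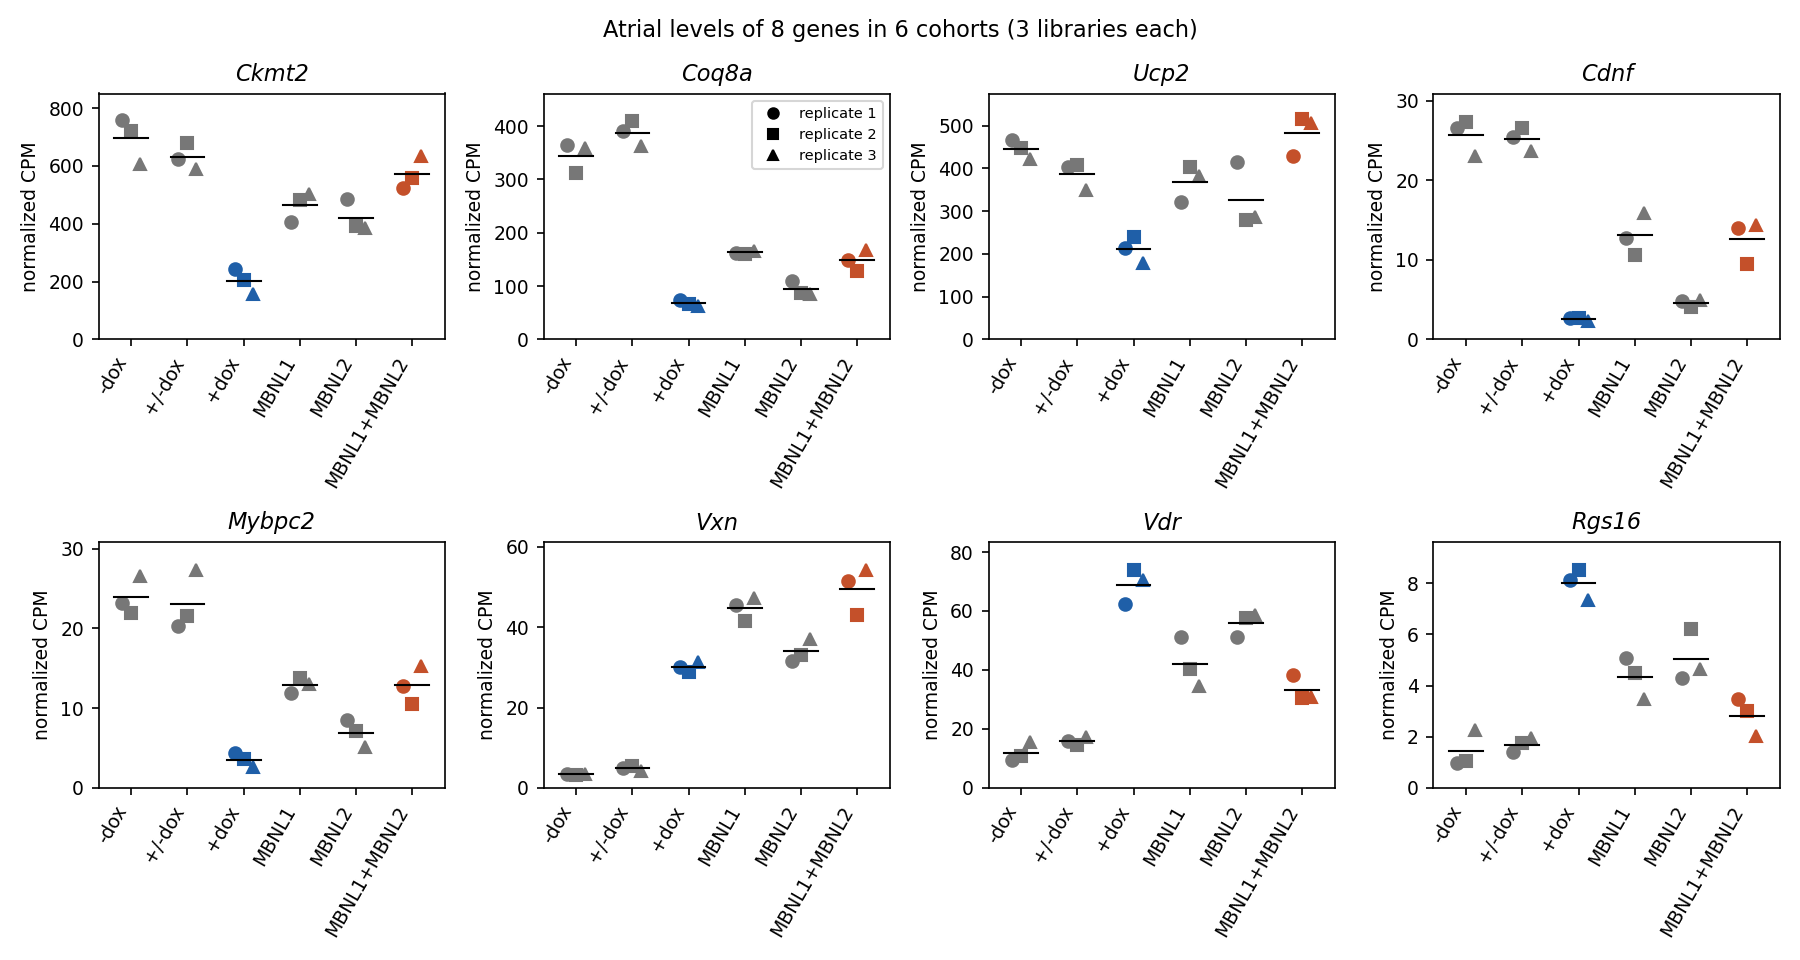
Normalized CPM (vertical axes, from 0) of 8 genes in each atrial library of 6 cohorts (horizontal axes). Symbols mark the replicate and bars the mean of 3 libraries, with +dox in blue and MBNL1+MBNL2 in red. For Ckmt2, Coq8a, Cdnf and Mybpc2 the red points lie between the +dox and -dox points, for Ucp2 they reach 515, and for Vxn they lie above all points of the -dox and +/-dox cohorts.

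Cdnf, a secreted neurotrophic factor that resides in the endoplasmic reticulum (chr2:3513030-3526376, GRCm38), was at 2.67, 2.65 and 2.38 normalized CPM in the +dox libraries and 13.99, 9.52 and 14.4 in the MBNL1+MBNL2 libraries. That was the largest rise among called genes with a mean normalized count of at least 100 and no overlap (log2 fold change 2.30, SE 0.23, adjusted p = 9.80e-07). Levels in the other cohorts were 25.7 ± 2.30 in -dox, 25.2 ± 1.49 in +/-dox, 13.1 ± 2.62 in MBNL1 and 4.59 ± 0.464 in MBNL2 mice (mean ± SD, n = 3 each). The MBNL1+MBNL2 libraries thus lay near those of MBNL1 mice, above those of MBNL2 mice and below those of -dox mice, where the fold change was -1.02 (SE 0.21, adjusted p = 0.00242). Cdnf was the only called gene of the 23 tested in the list of the integrated stress response and endoplasmic reticulum chaperones, whose median was -0.0063. Of all genes tested, 0.260% were called.

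The promoters of Ckmt2 and Cdnf, the called rises with an adjusted p among the lowest, are shown beside that of Vdr, a called fall. Each stretch runs from 250 bases before to 50 bases after the annotated start (RefSeq, GRCm38.p6), and capitals mark CCAAT or its complement ATTGG, the core of the CCAAT box.
Ckmt2, chr13:91876836-91877135, minus strand: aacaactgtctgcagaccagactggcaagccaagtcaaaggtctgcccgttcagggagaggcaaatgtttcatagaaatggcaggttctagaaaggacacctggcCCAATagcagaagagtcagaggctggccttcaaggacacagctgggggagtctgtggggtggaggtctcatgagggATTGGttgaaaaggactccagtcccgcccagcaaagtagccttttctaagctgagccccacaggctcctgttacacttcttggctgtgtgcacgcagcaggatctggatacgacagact
Cdnf, chr2:3512815-3513114, plus strand: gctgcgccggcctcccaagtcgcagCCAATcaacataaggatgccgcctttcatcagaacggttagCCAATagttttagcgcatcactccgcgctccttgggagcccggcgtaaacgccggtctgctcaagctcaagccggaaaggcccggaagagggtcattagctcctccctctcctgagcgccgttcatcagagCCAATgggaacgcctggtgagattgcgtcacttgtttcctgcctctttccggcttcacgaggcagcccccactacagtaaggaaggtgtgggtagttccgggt
Vdr, chr15:97908247-97908546, minus strand: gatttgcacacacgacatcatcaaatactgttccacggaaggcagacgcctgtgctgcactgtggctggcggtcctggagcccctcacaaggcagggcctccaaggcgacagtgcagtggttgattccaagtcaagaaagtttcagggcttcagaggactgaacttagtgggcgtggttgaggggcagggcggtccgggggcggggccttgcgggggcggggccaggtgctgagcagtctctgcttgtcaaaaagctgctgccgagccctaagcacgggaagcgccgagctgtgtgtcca
The letters occurred at 2 places in Ckmt2, at 3 in Cdnf and at 0 in Vdr. The Vdr window lies inside the gene span given for Vdr below, so other starts of that gene were not searched. A match was held by 41.1% of all 27025 symbols of the RefSeq promoter table and by 42.2% of the 12837 tested genes found in it. It was held by 13 of the 27 risen genes found there and by 5 of the 13 fallen genes. A match describes the letters of this window and no site of binding.

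Contractile and cytoskeletal genes are described next, a grouping made after their values were seen. Mybpc2, the fast skeletal isoform of myosin-binding protein C, was at 4.39, 3.63 and 2.61 normalized CPM in the +dox libraries and 12.8, 10.6 and 15.3 in the MBNL1+MBNL2 libraries (log2 fold change 1.86, SE 0.38, adjusted p = 0.0174). The groups did not overlap, and the -dox mean of 23.9 ± 2.36 was higher still. Tnnt3, the fast skeletal troponin T, was low at 0.118, 0.107 and 0.0556 normalized CPM in the +dox libraries and 0.376, 0.171 and 0.989 in the MBNL1+MBNL2 libraries (log2 fold change 2.41, SE 0.59, adjusted p = 0.0449), with the lowest treated library close to the highest untreated one. Of the 57 genes in the sarcomere and Z-disc list these were the only calls, while 0.260% of all genes tested were called. The list median was 0.038, or -0.0056 without +dox replicate 3 and 0.18 against it alone. Myh6, the main cardiac myosin heavy chain and the source of the rtTA promoter, was at 34664, 37704 and 33593 normalized CPM in the +dox libraries and 30652, 30539 and 29308 in the MBNL1+MBNL2 libraries and was not called (log2 fold change -0.23, SE 0.092, adjusted p = 0.372). Outside the list, Pdlim7, a PDZ-LIM protein of actin filaments, was at 12.5, 10.4 and 9.50 normalized CPM in the +dox libraries and 17.1, 23.8 and 24.2 in the MBNL1+MBNL2 libraries (log2 fold change 1.01, SE 0.18, adjusted p = 0.00372). Myh14, a non-muscle myosin heavy chain, and Tppp3, a protein that binds tubulin, also rose, by 0.62 and 0.96 on the log2 scale. Leaving out 1 library at a time, Pdlim7 was called in 6 of 6 fits, Tppp3 in 3, Mybpc2 in 2, Myh14 in 2 and Tnnt3 in 1. The adjusted p reached 0.112 without +dox replicate 3 for Mybpc2 and 0.548 without MBNL1+MBNL2 replicate 3 for Tnnt3.

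Secreted and matrix proteins formed another group of rises, put together after their values were seen. Clu, which encodes the extracellular chaperone clusterin, was the most abundant called gene, at 1040.4, 1209 and 1108 normalized CPM in the +dox libraries and 1744, 1683 and 2013 in the MBNL1+MBNL2 libraries (log2 fold change 0.70, SE 0.095, adjusted p = 6.54e-05). Hmcn2, a basement membrane protein, was at 5.37, 4.66 and 2.86 normalized CPM in the +dox libraries and 12.1, 19.4 and 31.2 in the MBNL1+MBNL2 libraries (log2 fold change 2.27, SE 0.46, adjusted p = 0.0169), and Pi16, a secreted peptidase inhibitor of fibroblasts, at 41.9, 35.4 and 25.7 normalized CPM in the +dox libraries and 52.4, 91.6 and 109 in the MBNL1+MBNL2 libraries (log2 fold change 1.29, SE 0.28, adjusted p = 0.0271). For both genes the treated libraries differed by more than 2-fold among themselves, with replicate 3 highest. Igf2, an insulin-like growth factor, was at 70.4, 114 and 45.6 normalized CPM in the +dox libraries and 161, 146 and 188 in the MBNL1+MBNL2 libraries (log2 fold change 1.10, SE 0.24, adjusted p = 0.0267). Its fold change was 0.84 against +dox replicates 1 and 2 and 1.85 against replicate 3. Nid1, a basement membrane linker, rose by 0.60. Clu was called in all 6 leave-one-out fits, but Nid1 in 4, Hmcn2 in 2, Igf2 in 2 and Pi16 in 1, with adjusted p up to 0.215 without MBNL1+MBNL2 replicate 3 for Pi16, 0.154 without MBNL1+MBNL2 replicate 3 for Hmcn2 and 0.168 without MBNL1+MBNL2 replicate 3 for Igf2. None of these 5 is in the list of extracellular matrix and fibrosis, whose values are given with those of other cell types.

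Further rises spanned several functions. Bcl6, a transcriptional repressor, was at 10.1, 8.29 and 10.4 normalized CPM in the +dox libraries and 31.4, 16.4 and 30.9 in the MBNL1+MBNL2 libraries (log2 fold change 1.45, SE 0.31, adjusted p = 0.0260), with treated replicate 2 closest to the +dox libraries. Mt2, a metal-binding protein induced by stress, was at 2.30, 2.82 and 2.00 normalized CPM in the +dox libraries and 6.00, 4.89 and 5.69 in the MBNL1+MBNL2 libraries (log2 fold change 1.22, SE 0.29, adjusted p = 0.0418). Taf1a, a subunit of the initiation factor of RNA polymerase I, was at 2.28, 2.23 and 2.46 normalized CPM in the +dox libraries and 5.09, 4.68 and 4.92 in the MBNL1+MBNL2 libraries (log2 fold change 1.076, SE 0.14, adjusted p = 3.46e-05). Neither Mt2 nor Taf1a overlapped between the groups. Gm7694, a predicted gene that overlaps Nos1ap on the same strand so that reads may be shared, was at 2.45, 2.52 and 2.71 normalized CPM in the +dox libraries and 5.68, 5.56 and 6.24 in the MBNL1+MBNL2 libraries (log2 fold change 1.19, SE 0.12, adjusted p = 2.66e-07). Lta4h, an enzyme of leukotriene synthesis, rose by 0.78, Rabgap1l, a GTPase-activating protein, by 0.72, Vwa7 by 0.71, Nudt6 by 0.78 and Mfsd4b1 by 1.62 on the log2 scale. Taf1a, Gm7694, Lta4h, Rabgap1l, Vwa7, Nudt6 and Mfsd4b1 were called in all 6 leave-one-out fits. Bcl6 was called in 1 of 6 and Mt2 in 0, with adjusted p up to 0.157 without MBNL1+MBNL2 replicate 3 for Bcl6 and 0.199 without +dox replicate 3 for Mt2. The remaining rises were C030006K11Rik, Alkbh3 and Polh, which repair or bypass damaged DNA bases (the last 2), Kbtbd12, Nudt8, Pdrg1, Sec14l5, Slc16a9, Gm29237 and Cidea, with log2 fold changes between 0.59 for Pdrg1 and 0.97 for Gm29237.

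The 16 falls are ordered here by known role, a grouping made after their values were seen, with receptors and G protein signaling first. Vdr, the vitamin D receptor (chr15:97854425-97910630, GRCm38), was at 62.3, 74.0 and 70.5 normalized CPM in the +dox libraries and 38.3, 30.5 and 30.7 in the MBNL1+MBNL2 libraries (log2 fold change -1.06, SE 0.20, adjusted p = 0.00963). Every treated library lay below every +dox library, and the -dox mean was 11.9 ± 3.14, with a fold change of 1.48 (SE 0.21, adjusted p = 3.10e-05) between MBNL1+MBNL2 and -dox mice. Rgs16, which speeds up GTP hydrolysis by G protein α subunits, was at 8.12, 8.53 and 7.36 normalized CPM in the +dox libraries and 3.47, 3.00 and 2.02 in the MBNL1+MBNL2 libraries (log2 fold change -1.50, SE 0.31, adjusted p = 0.0134). Rgs8, of the same family, had the largest fall, at 2.64, 0.977 and 0.653 normalized CPM in the +dox libraries and 0.106, 0.105 and 0.0760 in the MBNL1+MBNL2 libraries (log2 fold change -3.87, SE 0.88, adjusted p = 0.0343), and its +dox libraries themselves spread about 4-fold. Rasd2, a Ras-like GTPase, and Pak7, a p21-activated kinase, fell by 0.86 and 2.46 on the log2 scale. The log2 fold change of Vdr was -1.04 against +dox replicates 1 and 2 and -1.09 against replicate 3. No gene of this group was called in all 6 leave-one-out fits. Vdr and Rgs16 were called in 3 and 3 of them, with adjusted p up to 0.0881 without MBNL1+MBNL2 replicate 3 for Vdr and 0.154 without MBNL1+MBNL2 replicate 3 for Rgs16, and Rgs8, Pak7 and Rasd2 in 1 each.

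Falls outside signaling included genes best known from neurons and from the matrix. Rims4, a presynaptic active zone protein, was at 5.66, 6.07 and 4.50 normalized CPM in the +dox libraries and 1.94, 3.20 and 2.29 in the MBNL1+MBNL2 libraries (log2 fold change -1.13, SE 0.22, adjusted p = 0.00779). St8sia2, a polysialyltransferase, was at 4.21, 4.65 and 4.76 normalized CPM in the +dox libraries and 1.47, 1.601 and 1.80 in the MBNL1+MBNL2 libraries (log2 fold change -1.48, SE 0.36, adjusted p = 0.0469), and Mdga1, a cell surface adhesion protein, fell by 0.67. Emilin2, an elastic-fiber glycoprotein, was at 105, 123 and 100.3 normalized CPM in the +dox libraries and 73.6, 69.8 and 67.0 in the MBNL1+MBNL2 libraries and had the lowest adjusted p of the falls (log2 fold change -0.64, SE 0.096, adjusted p = 3.16e-04). Lrrc15, a membrane protein of activated fibroblasts, was at 37.4, 36.9 and 38.4 normalized CPM in the +dox libraries and 23.9, 25.8 and 24.4 in the MBNL1+MBNL2 libraries (log2 fold change -0.61, SE 0.12, adjusted p = 0.0128), with little spread in either group. Mrvi1, which links cGMP signaling to inositol trisphosphate receptors, was at 246, 284 and 253 normalized CPM in the +dox libraries and 198, 160.2 and 136 in the MBNL1+MBNL2 libraries (log2 fold change -0.67, SE 0.14, adjusted p = 0.0207). Necap2, an endocytic adaptor protein, was at 51.5, 49.8 and 43.6 normalized CPM in the +dox libraries and 28.7, 32.5 and 28.8 in the MBNL1+MBNL2 libraries (log2 fold change -0.69, SE 0.13, adjusted p = 0.00733), and Samd5, a protein with a SAM domain, at 29.9, 29.6 and 30.0 normalized CPM in the +dox libraries and 17.1, 18.2 and 15.5 in the MBNL1+MBNL2 libraries (log2 fold change -0.81, SE 0.16, adjusted p = 0.0105). Neither overlapped between groups. Shmt1, the cytosolic serine hydroxymethyltransferase, fell by 0.77, Gm13212 by 0.73 and Gm10635 by 1.46 on the log2 scale. Emilin2 was called in 5 of the 6 leave-one-out fits and kept an adjusted p of at most 0.00976 in all 6. Samd5 and Necap2 were called in 4 each (adjusted p = 0.100 without MBNL1+MBNL2 replicate 3 and 0.0666 without MBNL1+MBNL2 replicate 3), Rims4 in 3 and the others in at most 2, with St8sia2, Shmt1 and Gm10635 in none.

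The comparison with mice that never made repeat RNA or no longer made it asked how far treated atria still differed from them. MBNL1+MBNL2 atria differed from -dox atria at 580 genes (3.02% of 19231), 281 higher and 299 lower, and from +/-dox atria at 328 genes (1.71%), 162 higher and 166 lower. In the same fit, untreated +dox atria differed from -dox atria at 1005 genes (5.23%) and from +/-dox atria at 767 (3.99%). The -dox, +/-dox and +dox cohorts hold both sets and, as the study lists, both sexes, unlike the MBNL1+MBNL2 cohort. With X and Y genes left out, the MBNL1+MBNL2 counts were 547 and 321. Without MBNL1+MBNL2 replicate 2 the counts against -dox and +/-dox mice were 369 and 200, and without replicate 3 they were 363 and 217. On log2(TPM + 1) in place of scaled counts, 299 of 484 calls against -dox and 237 of 330 against +/-dox mice were higher. Vxn, a regulator of neurogenesis, led by p in both. It was at 30.2, 28.7 and 31.2 normalized CPM in the +dox libraries and 51.4, 42.9 and 54.1 in the MBNL1+MBNL2 libraries and so rose (log2 fold change 0.72, SE 0.12, adjusted p = 8.99e-04), although the -dox and +/-dox means were only 3.47 ± 0.147 and 4.85 ± 0.678. The fold change of MBNL1+MBNL2 against -dox mice was 3.83 (SE 0.13, adjusted p = 8.72e-20) and against +/-dox mice 3.35 (SE 0.13, adjusted p = 2.32e-18). Dlg4, a postsynaptic scaffold protein, was at 46.1, 47.9 and 41.3 normalized CPM in the +dox libraries and 44.8, 42.0 and 43.1 in the MBNL1+MBNL2 libraries, and these overlapped, while -dox mice had 11.3 ± 1.27 and +/-dox mice 16.3 ± 0.358 (log2 fold change against -dox 1.94, SE 0.12, adjusted p = 1.80e-12). Hagh, a glyoxalase, and Nudt5, a hydrolase of ADP-ribose, were higher than in -dox mice by 1.22 (SE 0.082, adjusted p = 5.80e-12) and 1.31 (SE 0.10, adjusted p = 2.17e-10) on the log2 scale. Hagh was also higher than in +/-dox mice by 1.03 (SE 0.081, adjusted p = 7.11e-10), Nudt5 by 1.22 (SE 0.10, adjusted p = 1.81e-09) and Dip2a, a disco-interacting protein, by 0.98 (SE 0.078, adjusted p = 7.11e-10). Chd6, a chromatin remodeler, was at 52.6, 54.4 and 54.4 normalized CPM in the +dox libraries and 51.1, 55.6 and 57.1 in the MBNL1+MBNL2 libraries beside 146 ± 17.3 in -dox and 80.8 ± 4.90 in +/-dox mice, and the log2 fold change against -dox mice was -1.42 (SE 0.079, adjusted p = 6.34e-14). Gja5, the atrial connexin 40, was at 15.3, 14.5 and 18.3 normalized CPM in the +dox libraries and 12.3, 10.02 and 11.8 in the MBNL1+MBNL2 libraries, far below the -dox level of 79.7 ± 5.35 (log2 fold change -2.81, SE 0.22, adjusted p = 1.81e-09).

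Both vectors together were next set against each vector alone, with cohorts as in the deposited labels. For atrial Ckmt2 (given above) and Kcna4 (-0.597), the study lists under MBNL1 the DESeq2 log2 fold changes found here for MBNL1+MBNL2. Against MBNL1 mice, 0 genes were called by edgeR's quasi-likelihood test, adjusted after Benjamini and Hochberg (0%), with 454 genes at an unadjusted p below 0.05, and DESeq2 and limma-voom also called 0. The 3 MBNL1+MBNL2 libraries differ in set from 2 of the 3 MBNL1 libraries. They may also differ in sex, as the study lists 1 female in the MBNL1 cohort and in the MBNL2 cohort. With set as a term, which may thus also hold a difference of sex, 65 genes were called. Ckmt2 had a log2 fold change of 0.30 (SE 0.11, adjusted p = 1.00), Cdnf of -0.054 (SE 0.21, adjusted p = 1.00) and Vdr of -0.34 (SE 0.20, adjusted p = 1.00) between these cohorts. Against MBNL2 mice, 2 genes were called (0.0104%), both higher, with 1031 genes at an unadjusted p below 0.05. Cdnf was at 13.99, 9.52 and 14.4 normalized CPM in the MBNL1+MBNL2 libraries and 4.77, 4.06 and 4.93 in the MBNL2 libraries (log2 fold change 1.46, SE 0.22, adjusted p = 0.00830). Slco2b1, an organic anion transporter, was at 12.1, 9.42 and 11.4 in the former and 6.72, 7.14 and 6.36 in the latter (log2 fold change 0.70, SE 0.12, adjusted p = 0.0168). The groups did not overlap for either gene. Neither was called without MBNL1+MBNL2 replicate 1, without its replicate 3 or without MBNL2 replicate 1, when 0 genes were called, nor without MBNL2 replicate 2, when 1 other gene was.

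No listed gene of calcium handling or of the ion channels was called. Of 40 genes of calcium release and reuptake none was called, the list median was -0.033 (-0.091 without +dox replicate 3 and 0.083 against it alone), and 6 had an unadjusted p below 0.05. Over all 19231 genes tested, 0.260% were called and 1924 had an unadjusted p below 0.05. Ryr2, the calcium release channel of the sarcoplasmic reticulum, was at 1240.4, 1299 and 1141 normalized CPM in the +dox libraries and 1311, 1357 and 1341 in the MBNL1+MBNL2 libraries, with every treated library above every +dox library, but it was not called (log2 fold change 0.12, SE 0.070, adjusted p = 0.597). The -dox mean was 1985 ± 153, and the log2 fold change of MBNL1+MBNL2 against -dox mice was -0.57 (SE 0.070, adjusted p = 2.42e-06). Asph, which encodes junctin and aspartate hydroxylase, was at 430.1, 398 and 356 normalized CPM in the +dox libraries and 358, 386 and 392 in the MBNL1+MBNL2 libraries and overlapped (log2 fold change -0.060, SE 0.086, adjusted p = 0.895). Camk2a and Cacna1g, a kinase and a T-type calcium channel, had the lowest p of the list (0.32 and -0.74 on the log2 scale, adjusted p = 0.112 and 0.342).

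Sodium channels and connexins likewise gave 0 calls among 15 genes tested (5 at an unadjusted p below 0.05, beside 1924 of all 19231 genes tested). Gja5 was below +dox in all 3 treated libraries but was not called (log2 fold change -0.49, SE 0.21, adjusted p = 0.406). Gja3, another connexin, was lower in p (log2 fold change -0.38, SE 0.12, adjusted p = 0.176) and was not called either. Potassium, pacemaker and chloride channels gave 0 calls among 32 genes, with 6 at an unadjusted p below 0.05. Kcna4, a channel of the transient outward current, was at 10.5, 9.09 and 10.5 normalized CPM in the +dox libraries and 6.26, 6.19 and 7.36 in the MBNL1+MBNL2 libraries, without overlap (log2 fold change -0.60, SE 0.17, adjusted p = 0.0968). It was called in 5 of 18 alternative fits, by DESeq2 among them (adjusted p = 0.0133). Hcn4, the pacemaker channel, was at 24.4, 27.2 and 17.1 normalized CPM in the +dox libraries and 13.6, 15.0 and 12.1 in the MBNL1+MBNL2 libraries (log2 fold change -0.76, SE 0.52, adjusted p = 0.704). Its treated libraries were below all +dox libraries, which themselves ranged from 17.1 to 27.2. Of 19 genes tested in the list of MBNL and other muscle splicing regulators none was called (3 at an unadjusted p below 0.05). Celf1 at -0.19 and Dmwd at 0.22 had the lowest p (adjusted p = 0.356 and 0.435). Dmwd is in the list but is not itself a splicing regulator.

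The list of cardiac stress and hypertrophy held 2 calls among 24 genes, both higher (Mt2 and Vxn), with a median of 0.26. Among all genes tested, 0.260% were called. Nppb, the B-type natriuretic peptide, was at 60.9, 33.9 and 50.4 normalized CPM in the +dox libraries and 65.4, 105 and 138 in the MBNL1+MBNL2 libraries (log2 fold change 1.09, SE 0.37, adjusted p = 0.242), and Ccn2, a matricellular growth factor, at 197, 118 and 193 normalized CPM in the +dox libraries and 343, 251 and 478 in the MBNL1+MBNL2 libraries (log2 fold change 1.076, SE 0.32, adjusted p = 0.144). For both genes all treated libraries lay above all +dox libraries, with replicate 3 highest, yet neither was called. The atrial and nodal list (21 genes, median -0.10), the ventricular list (10, -0.17), the circadian list (16, -0.14), the cell cycle list (17, 0.38), the immediate early genes (15, -0.58) and the transcripts of mitochondrial DNA (13, -0.058) gave 0 calls. Without MBNL1+MBNL2 replicate 3 the cell cycle median was -0.14 and the ventricular one -0.057. The median of the immediate early genes was -0.36 without +dox replicate 3 and -0.88 against it alone, that of the atrial and nodal list -0.095 and 0.021, and that of mitochondrial DNA -0.11 and 0.0061. Without MBNL1+MBNL2 replicate 1 the circadian median was -0.24, the cell cycle median 0.72, and the atrial and ventricular ones -0.18 and -0.28.

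**Figure D3:**
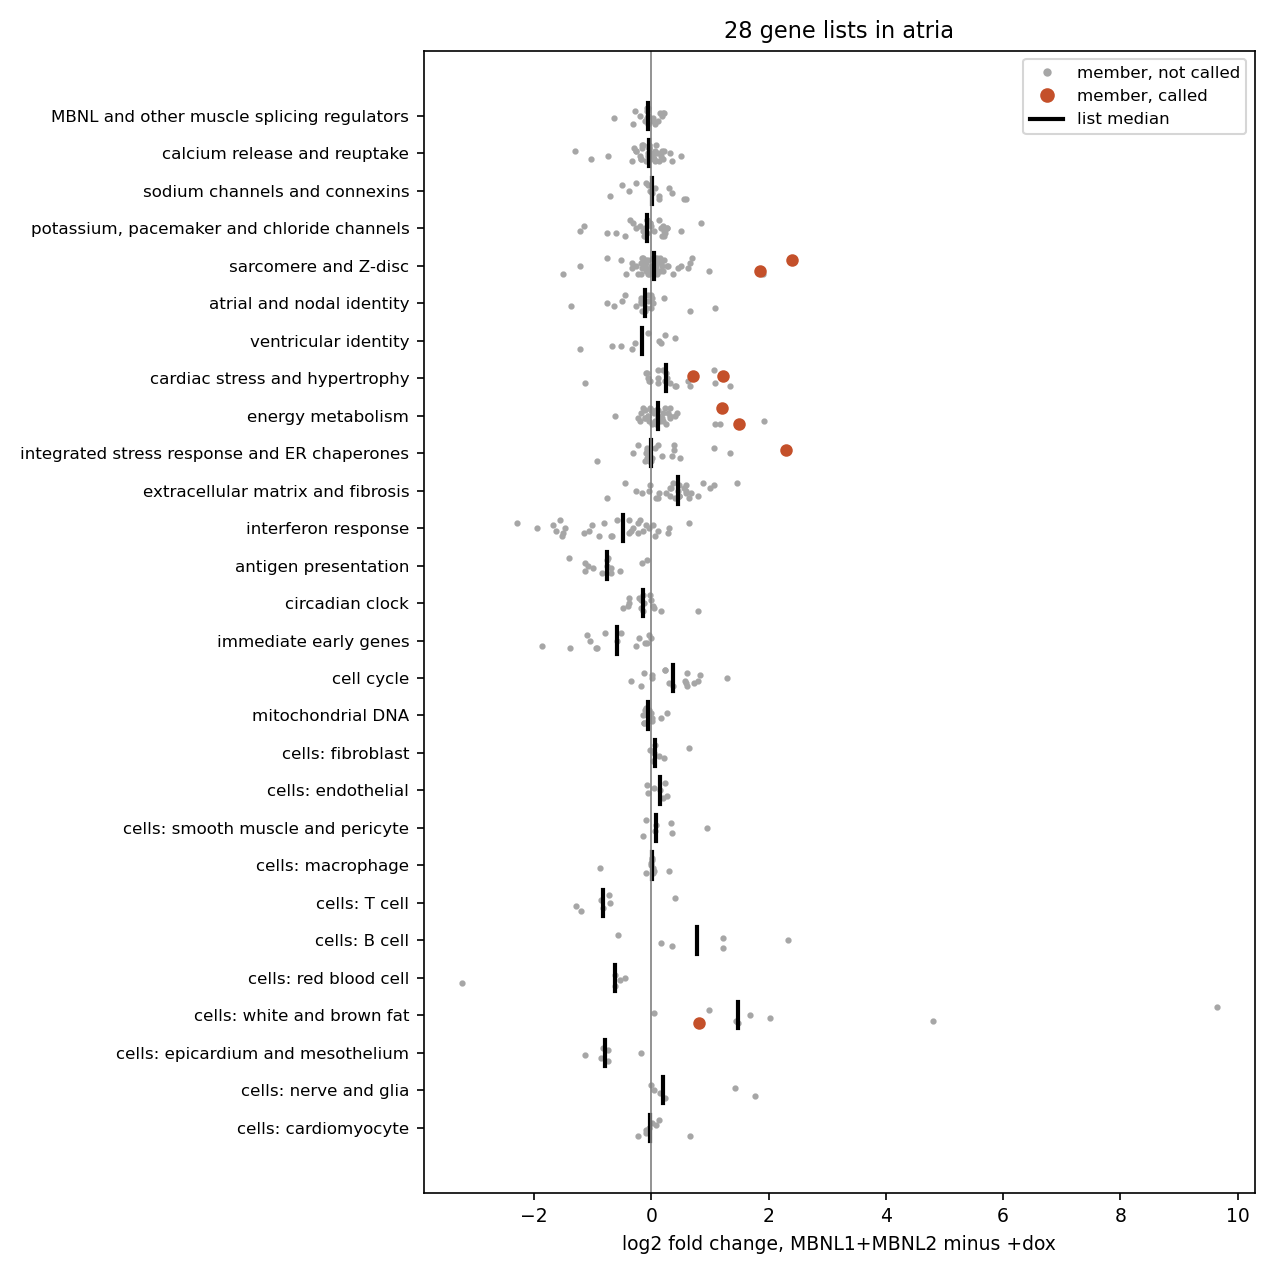
Log2 fold changes between MBNL1+MBNL2 and +dox atria (horizontal axis) for the tested members of 28 gene lists (vertical axis). Grey points are members that were not called, red points called members and black bars list medians. Calls fall in 5 lists and lie right of 0, and most list medians lie near 0.

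In lists of immune and other cell types, single libraries stood apart. The interferon list (32 genes, 0 calls, median -0.49) summed to 472, 236 and 1121 normalized CPM in the +dox libraries and 405, 282 and 268 in the MBNL1+MBNL2 libraries. Antigen presentation genes (14, 0 calls, median -0.76) summed to 1344, 1068 and 2606 in the former and 1258, 1036 and 888 in the latter. In both, +dox replicate 3 stood above the other 5 libraries, and without it the medians were -0.099 and -0.19. Gbp8, an interferon-induced GTPase, was at 7.83, 1.76 and 28.4 normalized CPM in the +dox libraries and 4.54, 2.24 and 0.963 in the MBNL1+MBNL2 libraries, and H2-Ab1, a class II antigen-presenting molecule, at 66.4, 42.8 and 124 normalized CPM in the +dox libraries and 49.7, 30.1 and 27.1 in the MBNL1+MBNL2 libraries. The T cell markers summed to the highest value in +dox replicate 3, at 5.63 normalized CPM, and to the lowest in MBNL1+MBNL2 replicate 2, at 2.06.

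Genes of the extracellular matrix and fibrosis (31, 0 calls, median 0.46) summed to 3384, 3179.8 and 3307 normalized CPM in +dox and 3755, 3974 and 5627 in MBNL1+MBNL2 atria. Every treated library was above every untreated one, replicate 3 by the most, and without it the median was 0.21. In this list 11 genes had an unadjusted p below 0.05, beside 1924 of all 19231 tested, of which 0.260% were called. Col1a1, a collagen of fibroblasts, was at 145, 130.5 and 146 normalized CPM in the +dox libraries and 152, 184 and 322 in the MBNL1+MBNL2 libraries, and Mmp2, a matrix protease, at 98.7, 88.0 and 101 normalized CPM in the +dox libraries and 120.2, 137 and 175 in the MBNL1+MBNL2 libraries (log2 fold change 0.59, SE 0.17, adjusted p = 0.114). Fibroblast markers, with +dox first and MBNL1+MBNL2 second here and in the sums that follow, summed to 4744, 4903 and 5519 and 5750.0, 5046 and 5362, which overlapped. Hmcn2, Pi16, Nid1 and Igf2 were also highest in treated replicate 3, and the part of connective tissue in their rises was not tested. White and brown fat markers (9 tested, median 1.48) summed to 7.51, 9.65 and 20.1 and 57.1, 20.2 and 19.7, with treated replicate 1 the highest. Without it the median was 0.88, and without +dox replicate 3, the highest of its cohort, 3.50. Ucp1, the uncoupling protein of brown fat, was at 0, 0 and 0.0139 normalized CPM in the +dox libraries and 13.5, 0 and 0.0253 in the MBNL1+MBNL2 libraries. Cidea, a lipid droplet protein, was the only call of that list, at 6.66, 7.06 and 5.38 normalized CPM in the +dox libraries and 14.3, 10.8 and 8.71 in the MBNL1+MBNL2 libraries (log2 fold change 0.82, SE 0.20, adjusted p = 0.0455), and it was called in 1 of the 6 leave-one-out fits. Markers of epicardium and mesothelium (6, 0 calls) summed to 27.4, 94.98 and 82.3 and 65.0, 27.3 and 26.4, and red blood cell markers (5, 0 calls) to 376, 168 and 171 and 137, 63.0 and 279. Cardiomyocyte markers summed to 60809, 62340.3 and 56559.9 and 55507, 60546 and 61322, which overlapped. Single markers moved both ways, with log2 fold changes from -0.23 to 0.66. Of the 8 markers, 3 did not overlap between the groups, Myh6 among them, beside 17.6% of all genes tested.

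**Figure D4:**
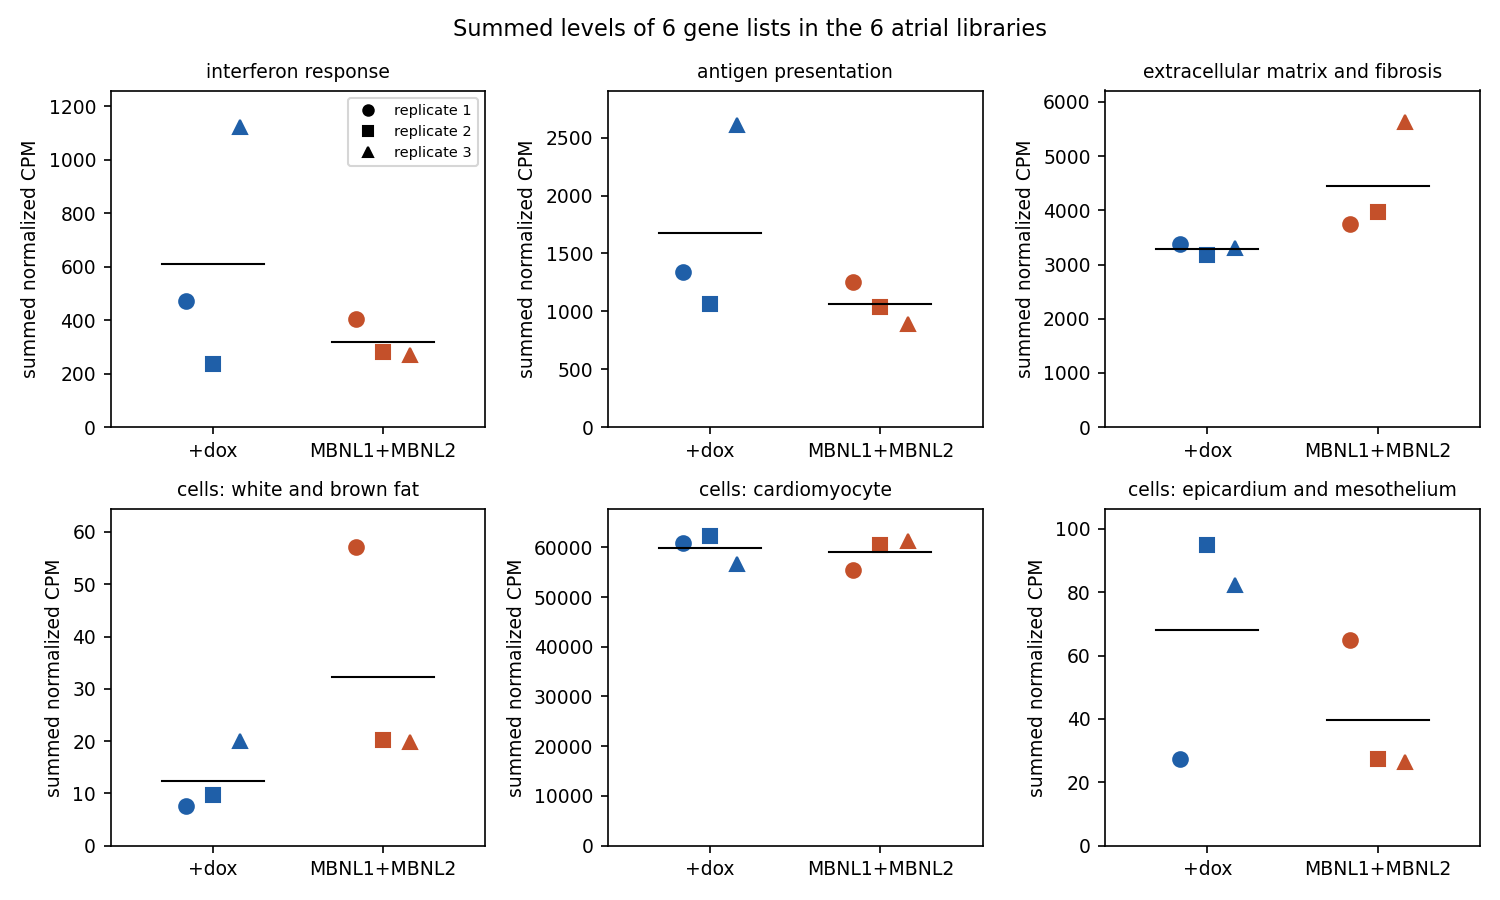
Summed normalized CPM (vertical axes, from 0) of 6 gene lists in the 6 atrial libraries, by cohort (horizontal axes). Symbols mark the replicate and bars the mean of 3. For interferon response +dox replicate 3 stands apart at 1121, for fat treated replicate 1 at 57.1 and for matrix treated replicate 3 at 5627, while the cardiomyocyte sums overlap.

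The atrial change was then compared with that in the left ventricle, which the study took from the same animals. In the ventricle, the same comparison called 509 genes (2.65%). Ckmt2 changed there by 1.33 (SE 0.11, adjusted p = 6.05e-09), Cdnf by 3.46 (SE 0.24, adjusted p = 5.10e-10), Coq8a by 1.95 (SE 0.18, adjusted p = 1.06e-07), Vdr by -1.64 (SE 0.26, adjusted p = 1.99e-04), Ucp2 by 0.60 (SE 0.16, adjusted p = 0.0175) and Vxn by 0.035 (SE 0.12, adjusted p = 0.898) on the log2 scale. None of these 6 passed the test of a difference between the tissues. For Vxn that difference was 0.68 (SE 0.16, adjusted p = 0.106), for Ucp2 0.60 (SE 0.22, adjusted p = 0.551) and for Coq8a -0.82 (SE 0.25, adjusted p = 0.329). The change of 14 genes differed between atria and ventricle (0.0728%), 11 of them more positive in atria. The study lists the same animals for both tissues, but the labels do not tie replicate numbers to animals. With the replicate number as a block across the tissues 59 genes were called, while on log2(TPM + 1) 12 of 18 were more positive in atria. Kcna4 changed by -0.60 in atria and -1.998 in ventricle (difference 1.40, SE 0.24, adjusted p = 0.0106). Its ventricular levels were 9.71, 8.45 and 7.46 normalized CPM in +dox and 1.83, 1.89 and 2.68 in MBNL1+MBNL2 libraries, against 10.5, 9.09 and 10.5 and 6.26, 6.19 and 7.36 in the atria. Emilin2 fell in atria and had a log2 fold change of 0.28 in ventricle (difference -0.92, SE 0.14, adjusted p = 0.00371), where it was at 12.4, 12.6 and 14.2 and 16.2, 15.3 and 16.1. In the cell cycle list 1 of 17 genes (Mcm2) was called for this difference. Pttg1, an inhibitor of sister chromatid separation, had a log2 fold change of 0.14 in atria and -1.91 in ventricle (difference 2.04, SE 0.32, adjusted p = 0.00402). Mcm2, a subunit of the replicative helicase, had 0.0059 and -1.55 (difference 1.56, SE 0.25, adjusted p = 0.00402), and Cks2, a partner of cyclin-dependent kinases, had 0.85 and -2.67 (difference 3.53, SE 0.62, adjusted p = 0.0128). For Mcm2 the atrial libraries were at 10.1, 8.22 and 7.22 and 7.36, 7.70 and 10.6 normalized CPM, which overlapped, and the ventricular ones at 18.6, 19.2 and 13.4 and 5.36, 6.70 and 5.44, which did not. The count moved when single libraries were left out, which also leaves fewer libraries in a group. It was 3 without atrial +dox replicate 2, 9 without atrial +dox replicate 3, 9 and 7 without atrial MBNL1+MBNL2 replicates 1 and 2, 5 and 6 without ventricular +dox replicates 1 and 2, 4 and 5 without ventricular MBNL1+MBNL2 replicates 1 and 2, and 34 without ventricular MBNL1+MBNL2 replicate 3.

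**Figure D5:**
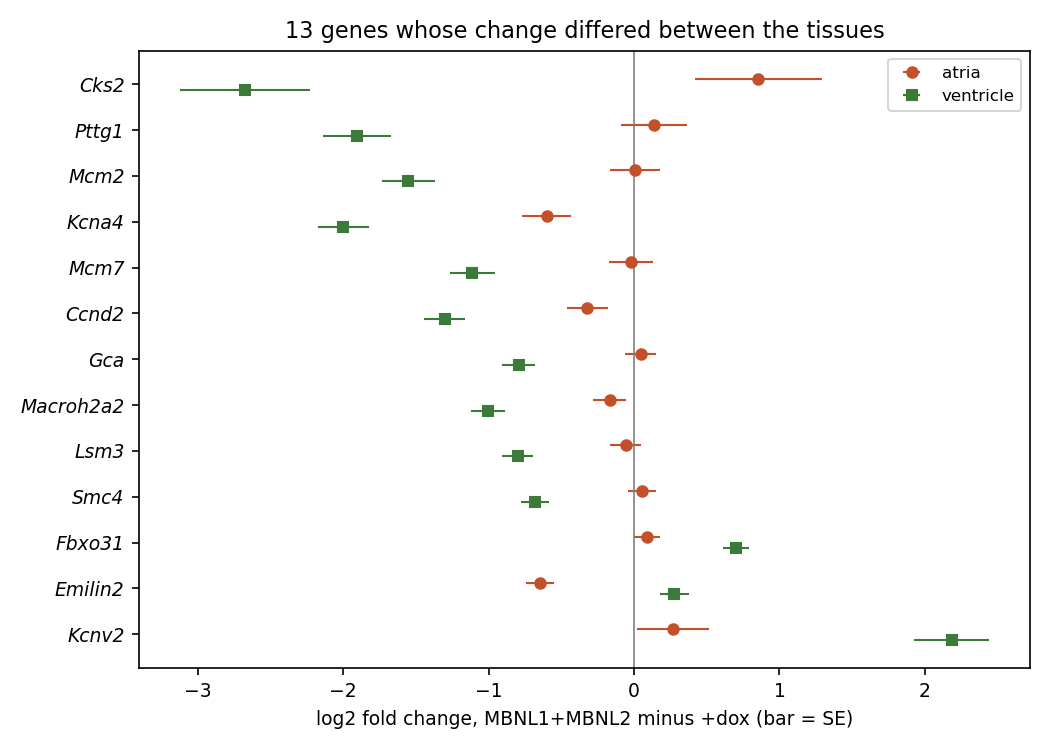
Log2 fold changes of MBNL1+MBNL2 against +dox mice (horizontal axis, bars are SE) in atria (circles) and left ventricle (squares) for 13 of the 14 genes (vertical axis) whose change differed between the tissues. The atrial points lie near 0 for most genes, while the ventricular points reach -2.67 for Cks2 and 2.18 for Kcnv2.

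Genes that respond to repeat RNA in the ventricle were followed in the atria. Of 667 genes called higher in ventricles of -dox than of +dox mice, 20 were called higher and 0 lower in MBNL1+MBNL2 atria (0.177% of all genes were called higher and 0.0832% lower), and their median atrial log2 fold change was 0.22, with quartiles of 0.042 and 0.41. Of 794 genes called lower in -dox ventricles, 10 were called lower and 1 higher (Vxn), and the median was -0.18, with quartiles of -0.40 and 0.011. All genes had a median of -0.0046. The medians against +dox replicates 1 and 2 were 0.22 and -0.17, and against +dox replicate 3 0.23 and -0.12. The ventricular lists share the +dox animals with the atrial comparison, though not its libraries. Deviations of same-numbered +dox libraries from their group means correlated between the tissues across genes, which are not independent replicates (r = 0.152, 0.166 and 0.257). For MBNL1+MBNL2 libraries r was 0.0558, 0.0701 and 0.0703. The counts and medians of these lists are therefore a description and no independent support.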

How the data were processed

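Poly(A) RNA of the atria and left ventricle was sequenced from stranded libraries. The authors aligned reads with STAR 2.7.10b to mm10 with GENCODE annotation and deposited expected counts and TPM per gene from RSEM 1.3.1; strand use in counting is not given in the sources used here. Samples were grouped by their labels. Expected counts were rounded and scaled by TMM, low genes were removed by filterByExpr (19231 kept), and all 36 libraries in 12 groups of tissue and cohort were fitted by edgeR 4.0.16 (R 4.3.3, robust quasi-likelihood test, Benjamini-Hochberg adjustment). Calls needed an adjusted p below 0.05 and a change of 1.5-fold. Depth was 62541798 to 85783989 counts in the 6 libraries compared, and replicates differed by far more than sampling noise (chi-square per gene 28.5 to 71.5). Symbols were matched to GENCODE M21 on GRCm38 for 96.4% of 55291. The members and gene lists were chosen with earlier results of these data known. Named genes are the MBNL genes and those the study followed, the 12 largest rises and falls with a mean normalized count of at least 100 and no overlap, called list members or else those with the lowest p, and the genes of lowest p in the other comparisons; remaining called genes were named after their values were seen. Alternatives were DESeq2 1.42.0, limma-voom and limma-trend on log2(TPM + 1) (limma 3.58.1), median-of-ratios scaling, no filter, fewer libraries, set as a term, a replicate block, 1 set only, no sex chromosomes and each library left out. On simulated data with 200 changed genes the test recovered 97% of 4-fold and 94% of 2-fold changes with 4 false calls. The changed genes all had a mean count of at least 100, and the simulated counts held no separate effect of set or sex. Splicing was not analysed here, and some genes that the rule names are not reported here.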

Additional observations from a re-analysis of the deposited data

Results flagged for a closer look

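The change with both vectors differed between atria and left ventricle at 14 genes by the interaction term of edgeR's quasi-likelihood test, and for 13 of them the atrial minus the ventricular log2 fold change is given here. It was more positive in atria at 11 genes, among them 3.53 for Cks2, 2.04 for Pttg1, 1.56 for Mcm2, 1.09 for Mcm7, 0.98 for Ccnd2 and 0.73 for Smc4 as well as 1.40 for Kcna4, 0.84 for Gca, 0.84 for Macroh2a2 and 0.74 for Lsm3. It was more negative in atria at 3 genes, with -0.92 for Emilin2, -1.92 for Kcnv2 and -0.61 for Fbxo31. The adjusted p ranged from 0.00371 for Emilin2 to 0.0452 for Lsm3, Fbxo31 and Ccnd2. Each cohort has 3 libraries per tissue, too few for the test of single outlying samples.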

How the results depend on the processing

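Counts of called genes moved with the test and with the handling of set. The study lists 1 female in each cohort other than MBNL1+MBNL2, so fits by set may also hold a difference of sex. For MBNL1+MBNL2 against +dox atria the 50 calls became 100 with DESeq2, 140 with limma-voom, 214 with set as a term, 95 against +dox replicate 3 alone and 20 to 48 with 1 library left out. Against +/-dox mice 328 became 707 with limma-voom, 508 in the 18 atrial libraries, 974 with set as a term and 200 to 440 with 1 library left out. Against -dox mice 580 became 1018 with limma-voom, 1341 with set as a term and 363 to 599 with 1 library left out. Against MBNL1 mice 0 became 65 with set as a term and 21 against replicate 3 alone. Against MBNL2 mice 2 became 12 with DESeq2, 8 with limma-voom, 5 on log2(TPM + 1), 65 with set as a term, 22 against replicate 3 alone and 0 to 2 with 1 library left out. The difference between the tissues went from 14 calls to 64 with DESeq2, 34 with limma-voom, 5 with only the compared libraries, 30 with set as a term, 9 within set B and 3 to 34 with 1 library left out. Replicate numbers did not pair the atrial samples (correlations of -0.0998, 0.00318 and -0.113), and with the replicate block the counts were 93, 571, 887, 0 and 8 for the atrial comparisons in the order above, and 59 for the tissues. The cause of these moves was not tested. Median-of-ratios scaling, no low-count filter (39), log2(TPM + 1) (52) and leaving out the X and Y chromosomes kept the first count within 1.5 times of 50. The 27 called genes that were followed one by one kept their direction in all 486 refits and their call in 341. These 27 were chosen as called in the same libraries, without overlap between the groups, so their kept direction was largely fixed in advance. Reversed signs came from genes without a call whose fold changes lay near 0. Asph had 0.061 on log2(TPM + 1), 0.081 with set as a term, 0.089 against +dox replicate 3 and -0.13 to 0.0065 with 1 library left out, the highest without +dox replicate 1. With 1 library left out, Dmpk ranged from -0.020 (without +dox replicate 3, which leaves set A) to 0.095 and was -0.0082 without MBNL1+MBNL2 replicate 3. Mbnl1 ranged from -0.040 to 0.11 and Mbnl2 from -0.025 to 0.078, both lowest without MBNL1+MBNL2 replicate 1. With 3 libraries a cohort, simulated 2-fold changes were recovered for 94% of genes, all with a mean count of at least 100. That simulation held no separate effect of set or sex, so in these data changes of 2-fold or less may be missed more often. The contrast with set A alone was chosen after seeing the data.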

Other observations

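Several gene lists held no called gene, and their members with the lowest p are given here as log2 fold changes between MBNL1+MBNL2 and +dox atria. Among immediate early genes, which respond within minutes to signals, the values were -1.86 for Fosb (adjusted p = 0.0946) and -0.93 for Btg2 (adjusted p = 0.432). In the circadian list, whose products set daily rhythms, they were -0.38 for Hlf (adjusted p = 0.406) and -0.17 for Clock (adjusted p = 0.690). For dividing cells they were -0.18 for Pcna (adjusted p = 0.321) and 1.296 for Ccnb2 (adjusted p = 0.553). Transcripts of mitochondrial DNA gave 0.27 for mt-Atp6 (adjusted p = 0.514) and -0.14 for mt-Nd4 (adjusted p = 0.647), and the ventricular list gave -0.67 for Gpr22 (adjusted p = 0.265) and -1.21 for Kcne1 (adjusted p = 0.598). Kcnc1, a potassium channel, stood second among its channels with -1.15 (adjusted p = 0.203).

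Markers of other cells of the heart likewise gave 0 calls. Brackets give the range of each median in fits without +dox replicate 3, without MBNL1+MBNL2 replicate 1 or without MBNL1+MBNL2 replicate 3. The median was 0.15 [0.15 to 0.26] over 7 endothelial genes, with 0.27 for Cdh5 (adjusted p = 0.384) and 0.24 for Tie1 (adjusted p = 0.395). It was 0.085 [0.00079 to 0.25] over 7 genes of smooth muscle and pericytes, with 0.34 for Rgs5 (adjusted p = 0.113) and 0.95 for Cnn1 (adjusted p = 0.557). Macrophage genes (10) had a median of 0.012 [-0.14 to 0.13], with -0.88 for Ccr2 (adjusted p = 0.553) and 0.30 for Lyve1 (adjusted p = 0.693), and fibroblast genes (7) one of 0.061 [0.044 to 0.17], with 0.21 for Tcf21 (adjusted p = 0.457). T cell genes (7) had a median of -0.83 [-0.90 to -0.31], with -1.29 for Cd3g (adjusted p = 0.418) and -0.71 for Cd4 (adjusted p = 0.520) and the value nearest 0 without +dox replicate 3, and B cell genes (6) one of 0.78 [0.47 to 0.81], with 1.21 for Cd79a (adjusted p = 0.620). Genes of nerve and glia (6) had a median of 0.19 [0.072 to 0.23], with 1.43 for Prph (adjusted p = 0.648). In the interferon and antigen presentation lists, Gbp2 and Ciita had -0.90 (adjusted p = 0.560) and -1.40 (adjusted p = 0.530). Upk1b and Krt19 of the mesothelium had -1.14 and -0.73, and Hba-a1 and Hba-a2, near-identical globin genes whose reads may be shared, -0.62 and -3.23. The 5 genes of the sex chromosomes gave 0 calls, Kdm5d of the Y among them at 0.62, and the +dox cohort holds both sexes.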
